A study of Mus musculus with 8 samples.

Results

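The muscle acetylcholine receptor and the proteins that cluster it beneath the nerve terminal were followed in cultured mouse muscle stem cells after Cre-mediated removal of exons 12 to 21 of Chd4, the gene of an ATPase in the NuRD chromatin remodelling complex. The 10 genes were listed by name, and the rule for the list uses no measured value. They are the receptor subunit genes Chrna1, Chrnb1, Chrng, Chrnd and Chrne, and the clustering genes Agrn, Lrp4, Musk, Dok7 and Rapsn, and they are 10 of 20976 genes in the deposited table. Total RNA was sequenced from 8 libraries of satellite cells sorted by flow cytometry from mice carrying loxP-flanked Chd4 alleles and briefly expanded in medium with 20% fetal calf serum and 5 ng/ml basic fibroblast growth factor. In 4 libraries the cells were infected with an adenovirus carrying Cre recombinase (Cre), and in 4 with an adenovirus carrying GFP (GFP), the control. All cells therefore carried the loxP alleles and an adenovirus, and no library paired Cre with an intact Chd4, so effects of Cre itself and of Chd4 loss cannot be told apart. The labels do not state age, sex or time after infection. The libraries are bulk cultures without nerve.

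In muscle, the receptor is a ligand-gated cation channel built from alpha, beta and delta subunits together with either the fetal gamma or the adult epsilon subunit, and the replacement of gamma by epsilon accompanies the maturation of the synapse. Agrin released by the motor nerve binds LRP4 on the muscle surface, LRP4 activates the receptor tyrosine kinase MuSK, the adaptor DOK7 holds MuSK active, and rapsyn anchors receptors into clusters. Transcription of the subunit genes is driven during differentiation by MyoD-family factors at E-boxes, and at synaptic nuclei by GABP and other ETS factors at the N-box.

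Start-site sequences were taken from RefSeq on GRCm38.p6, the build family of the deposited table, to show which of these elements lie near the genes measured here. Of the 10 genes, 7 had an entry, and Chrnd, Rapsn and Lrp4 had none. The 250 bases before the start were searched on both strands for the E-box CANNTG, for its form CAGCTG, bound by MyoD and counted among the CANNTG matches too, and for the N-box CCGGAA. Shown 5′ to 3′ on the strand of the gene are Chrna1 and Chrng, the most abundant and the fetal subunit, Chrne, the adult subunit, and Agrn, which had the largest difference among the genes above the filter on low values. The windows are chr2:73580339-73580588 on the minus strand for Chrna1, chr1:87205561-87205810 on the plus strand for Chrng, chr11:70619195-70619444 on the minus strand for Chrne, and chr4:156197489-156197738 on the minus strand for Agrn. Capitals mark E-boxes and, in Chrne, also the N-box.
Chrna1: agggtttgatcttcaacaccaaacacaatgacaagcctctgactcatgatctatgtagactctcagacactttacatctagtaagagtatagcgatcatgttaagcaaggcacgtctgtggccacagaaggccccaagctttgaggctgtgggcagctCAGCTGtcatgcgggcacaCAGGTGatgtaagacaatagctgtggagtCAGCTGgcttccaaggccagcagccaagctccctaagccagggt
Chrng: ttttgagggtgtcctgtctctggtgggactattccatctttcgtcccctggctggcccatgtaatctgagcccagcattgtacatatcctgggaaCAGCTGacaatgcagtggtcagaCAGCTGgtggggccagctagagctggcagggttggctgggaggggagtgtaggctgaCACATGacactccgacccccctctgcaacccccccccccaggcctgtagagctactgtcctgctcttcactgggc
Chrne: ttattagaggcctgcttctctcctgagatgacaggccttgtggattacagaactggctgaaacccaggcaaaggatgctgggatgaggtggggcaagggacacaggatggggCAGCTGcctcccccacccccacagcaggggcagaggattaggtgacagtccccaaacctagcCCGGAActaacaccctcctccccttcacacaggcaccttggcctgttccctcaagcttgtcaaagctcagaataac
Agrn: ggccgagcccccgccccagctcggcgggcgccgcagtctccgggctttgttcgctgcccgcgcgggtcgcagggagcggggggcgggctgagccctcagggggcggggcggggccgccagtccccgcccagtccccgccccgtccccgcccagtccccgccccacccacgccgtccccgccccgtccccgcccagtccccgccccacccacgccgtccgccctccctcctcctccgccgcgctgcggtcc
Chrna1 and Chrng each held 3 E-boxes, 2 of them CAGCTG. At least 3 E-boxes were present in 12.2% of 32851 mouse windows of the same length, and at least 2 copies of CAGCTG in 1.26%. Chrne held 1 CAGCTG, found in 13.0% of windows, and 1 CCGGAA, found in 12.0%. None of the motifs was in the Agrn window shown, while a window at a second Agrn start, chr4:156186260-156186509, held 1 E-box. An E-box was present in 66.2% of all windows. These matches describe the letters and are not measured binding.

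Estimated sequencing depth was 26.3 to 30.4 M reads in Cre libraries and 23.3 to 38.0 M in GFP libraries. The deposited values are read counts after scaling between the libraries and rounding, and they are called scaled reads below. Chd4, the targeted gene, is counted over the whole gene, including the exons that remain. It had 3686, 5480, 5010 and 5134 scaled reads in Cre libraries and 17886, 15904, 16634 and 20121 in GFP libraries. It was lower in 4 of 4 pairs (log2 change -1.88, SE 0.14, adjusted p = 0.00328, limma with Benjamini-Hochberg adjustment). Adjustments below ran over the 12910 genes that reached 1 count per M (CPM) in at least 4 libraries, on log2(scaled reads + 1), and an adjusted p under 0.05 was called. Libraries of the same number are given in the same order, and a second limma model that compared them as pairs is called the paired model. It is reported beside the unpaired one for the receptor and clustering genes wherever it changed a call, and as counts for the other gene lists.

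The 4 receptor subunits above the filter were well expressed in every library, at 6396 scaled reads or more, and their differences between Cre and GFP were 0.03 to 0.26 on the log2 scale. None of the 9 genes above the filter was called in the unpaired model, in which 1.08% of all 12910 genes were called. In the paired model Chrna1, Chrng, Chrnd, Musk and Agrn were called higher in Cre and Lrp4 lower. That is 5 of 9 higher, against 22.2% of all genes, and 1 of 9 lower, against 21.7%. With 43.9% of all genes called in that model, a call on its own places a gene within a large set. The median log2 change of the 9 genes was 0.16, and that of all genes tested was -0.00.

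**Figure D1:**
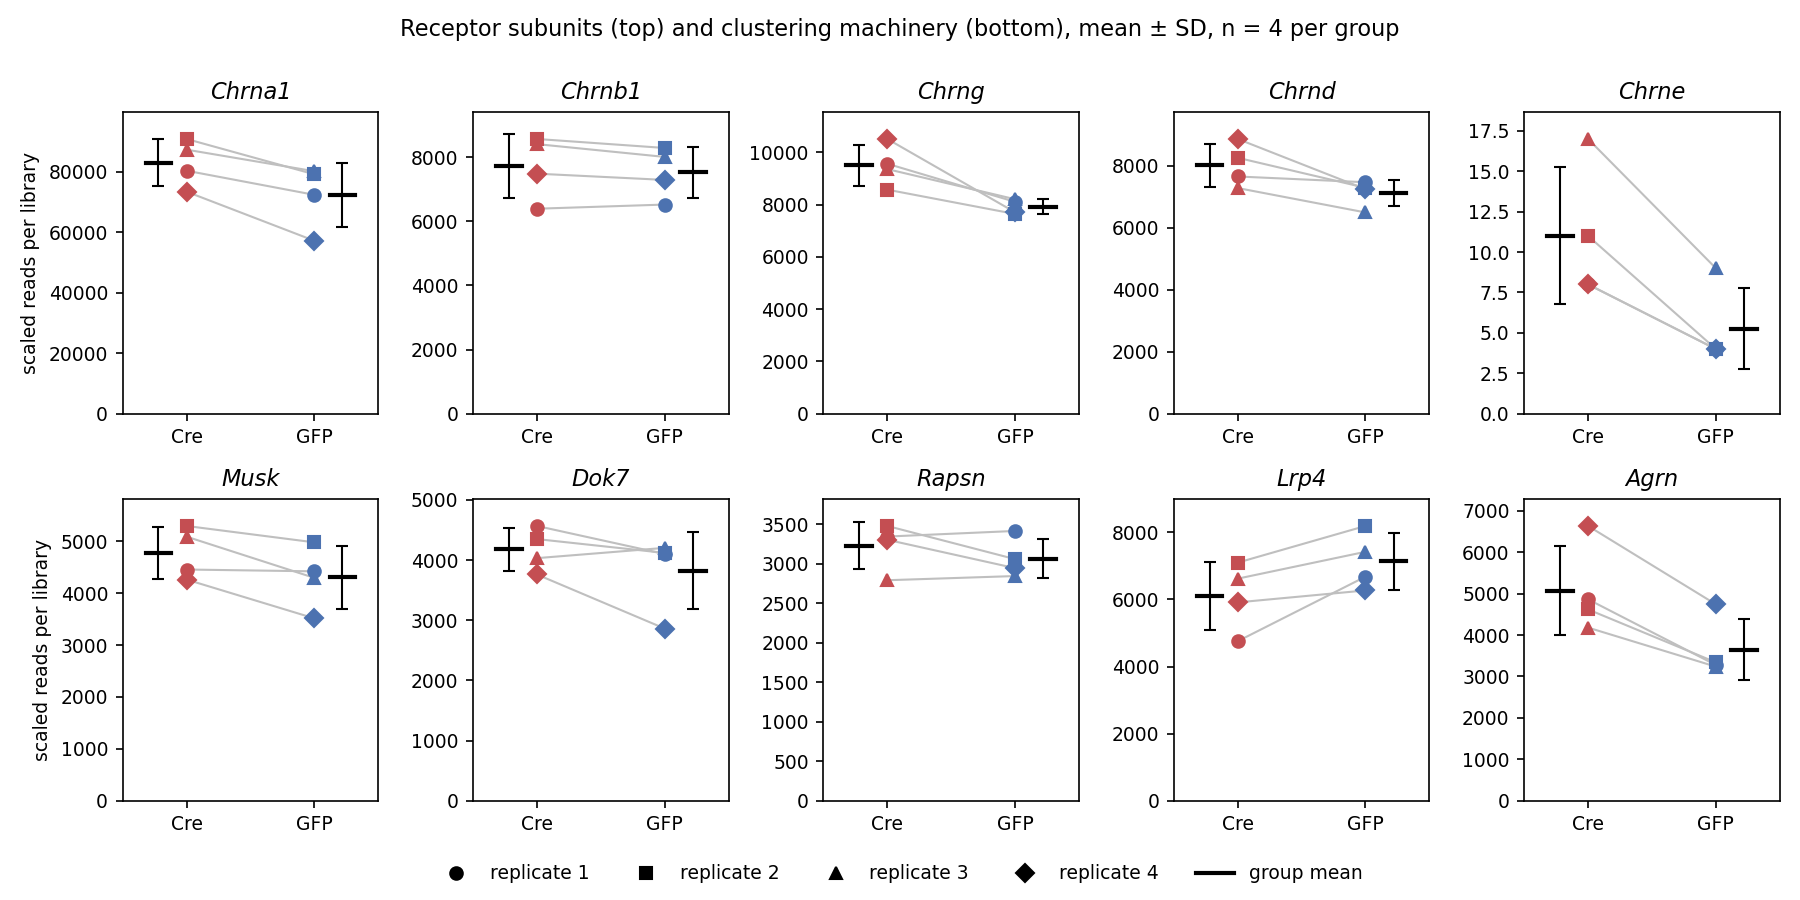
Scaled reads of the 10 genes in each library, Cre left and GFP right, each panel with its own axis starting at 0. Lines join libraries of the same number and bars show mean ± SD (n = 4 each). Chrng is the gene whose groups do not overlap, and Agrn, Chrna1, Chrnd, Musk and Chrne lie higher in Cre in 4 of 4 pairs.

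Chrna1 encodes the alpha subunit, which carries the acetylcholine binding site. It had 80345, 90841, 87308 and 73413 scaled reads in Cre libraries, against 72366, 79150, 80168 and 57181 in GFP libraries. The groups overlapped, GFP replicate 4 was the lowest of all, and Cre was higher in each pair. Cre libraries averaged 82977 ± 7724 and GFP libraries 72216 ± 10605 (SD, n = 4 each), a fold of 1.16 that was not called in the unpaired model (95% interval 0.929 to 1.44, limma adjusted p = 0.490) and was called in the paired one (1.06 to 1.26, adjusted p = 0.0137). The call was lost without pair 4 (paired limma adjusted p = 0.0667) and without pair 2 (0.0612). The log2 change was 0.21 with all pairs, 0.16 without pair 4 and 0.21 without pair 2, so the loss without pair 2 came with no smaller change.

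Chrng encodes the fetal gamma subunit. It had 9569, 8576, 9363 and 10517 scaled reads in Cre libraries, against 8109, 7645, 8209 and 7710 in GFP libraries. Every Cre library lay above every GFP library, the only one of the 10 genes for which this held. Among all genes tested, 10.6% had groups that did not overlap, 4.41% with Cre higher. Cre libraries averaged 9506 ± 798 and GFP libraries 7918 ± 282 (SD, n = 4 each). The log2 change was 0.26 (SE 0.076), with a limma p of 0.00844 before adjustment and an adjusted p of 0.151. At an unadjusted p under 0.05, Chrng and Agrn passed, 2 of 9 genes, against 16.7% of all genes. In the paired model Chrng was called (fold 1.20, 95% interval 1.11 to 1.30, limma adjusted p = 0.00228), and it kept the call in 10 of 10 paired settings.

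Chrnd encodes the delta subunit and lies beside Chrng on chromosome 1. It had 7656, 8260, 7283 and 8867 scaled reads in Cre libraries, against 7470, 7292, 6495 and 7247 in GFP libraries. The groups overlapped through Cre replicate 3, and Cre was higher in each pair. The log2 change of 0.17 was not called unpaired (SE 0.083, limma adjusted p = 0.356) and was called paired (SE 0.047, adjusted p = 0.0151). As for Chrna1, the paired call was lost without pair 2 or without pair 4 (adjusted p up to 0.0783).

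Chrnb1 encodes the beta subunit. It had 6396, 8573, 8412 and 7490 scaled reads in Cre libraries, against 6526, 8292, 8013 and 7295 in GFP libraries. The libraries of a pair were close to each other and replicate 1 was low in both groups. The log2 change was 0.03 (SE 0.12), not called in either model (limma adjusted p = 0.930 unpaired and 0.551 paired), and the unpaired interval of the fold was 0.848 to 1.23.

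Chrne encodes the adult epsilon subunit and was the rarest of the 10 genes, below the filter in the fits. It had 8, 11, 17 and 8 scaled reads in Cre libraries, against 4, 4, 9 and 4 in GFP libraries. Before the scaling these corresponded to an estimated 8, 10, 17 and 8 reads in Cre and 4, 3, 8 and 5 reads in GFP, so counting error is large. Replicate 3 was the highest of both groups, and Cre was higher in each pair. The mean log2(scaled reads + 1) was 0.95 higher in Cre, which did not pass a two-sided exact permutation test (p = 0.0857, where the smallest possible was 0.0286). Leaving out GFP replicate 3 gave 1.20 and an exact p of 0.0286, the smallest that 4 against 3 libraries allow. Leaving out any other single library gave an exact permutation p of 0.0857 to 0.114. Without the filter the limma adjusted p was 0.329 unpaired and 0.0517 paired.

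The balance of the fetal and the adult subunit stayed far on the fetal side. The ratio of Chrng to Chrne reads was 1196, 780, 551 and 1315 in Cre libraries, against 2027, 1911, 912 and 1928 in GFP libraries. The groups overlapped, and Cre was lower in each pair. Computed on log2(scaled reads + 1), the ratio averaged 9.69 ± 0.54 over Cre libraries and 10.38 ± 0.47 over GFP libraries (SD, n = 4 each). The difference of -0.69 did not pass the two-sided exact permutation test (p = 0.0857) or a sign-flip test over the 4 pairs (p = 0.125, the smallest that this exact test can give). Since Chrne supplied few reads, its counting error carries into the ratio.

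Agrn encodes agrin, the signal at the top of the clustering pathway. Muscle makes an agrin form with little clustering activity, and reads per gene do not separate it from the neural splice form. Agrn had 4863, 4619, 4180 and 6635 scaled reads in Cre libraries, against 3277, 3341, 3237 and 4742 in GFP libraries. Replicate 4 was the highest of both groups, GFP replicate 4 reached above Cre replicates 2 and 3, and each pair was higher in Cre by 0.37 to 0.57 on the log2 scale. Cre libraries averaged 5074 ± 1078 and GFP libraries 3649 ± 730 (SD, n = 4 each). The log2 change was 0.47 (SE 0.17), with a limma p of 0.0255 before adjustment and an adjusted p of 0.233, so it was not called unpaired. In the paired model it was called (fold 1.39, 95% interval 1.30 to 1.49, adjusted p = 2.91e-05), with the smallest adjusted p of the 9 genes tested, and it kept the call in 10 of 10 paired settings.

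Lrp4 encodes the agrin receptor and was the gene of the pathway with a difference in the other direction. It had 4754, 7097, 6619 and 5912 scaled reads in Cre libraries, against 6678, 8190, 7420 and 6268 in GFP libraries. The groups overlapped and Cre was lower in each pair, by 0.08 to 0.49 on the log2 scale, most in pair 1. The log2 change was -0.24 (SE 0.14), not called unpaired (limma adjusted p = 0.437) and called lower in the paired model (fold 0.849, 95% interval 0.773 to 0.932, adjusted p = 0.00973). The paired call was kept in 10 of 10 paired settings, with an adjusted p of at most 0.0313. The ligand and its receptor thus differed in opposite directions: Agrn reads per Lrp4 read were 1.02, 0.651, 0.632 and 1.12 in Cre libraries, against 0.491, 0.408, 0.436 and 0.757 in GFP libraries. This ratio was set up after the values had been seen. The groups overlapped, and Cre was higher in each pair. On log2(scaled reads + 1) the ratio did not pass a two-sided exact permutation test (p = 0.0857). Nor did it pass a sign-flip test over the pairs (p = 0.125, the smallest that this exact test can give).

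Musk encodes the kinase that LRP4 activates. It had 4458, 5298, 5092 and 4264 scaled reads in Cre libraries, against 4423, 4982, 4297 and 3516 in GFP libraries. The groups overlapped, and Cre was higher in each pair, by little in pair 1. The log2 change of 0.16 was not called unpaired (SE 0.12, limma adjusted p = 0.570) and was called paired (SE 0.051, adjusted p = 0.0310), in 5 of 10 paired settings. The call was lost without pair 2, 3 or 4, without the filter on low values and after rescaling to equal totals (adjusted p up to 0.142).

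Dok7 encodes the adaptor that holds the kinase active, and Rapsn encodes the scaffold of the clusters. Dok7 had 4568, 4350, 4033 and 3761 scaled reads in Cre libraries, against 4101, 4120, 4204 and 2862 in GFP libraries. GFP replicate 4 stood below the other libraries, and pair 3 was lower in Cre. The log2 change of Dok7 was 0.14 (SE 0.13), not called unpaired or paired (limma adjusted p = 0.657 and 0.0975), and without GFP replicate 4 it was 0.01. Rapsn had 3344, 3478, 2791 and 3303 scaled reads in Cre libraries, against 3415, 3058, 2844 and 2944 in GFP libraries. The groups overlapped and pairs 1 and 3 were lower in Cre. The log2 change of Rapsn was 0.07 (SE 0.092), not called in either model (limma adjusted p = 0.751 unpaired and 0.270 paired). A transcript on the opposite strand overlaps Rapsn, Gm13778, with a mean of 17.0 scaled reads in Cre and 18.0 in GFP, well under the level of Rapsn.

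**Figure D2:**
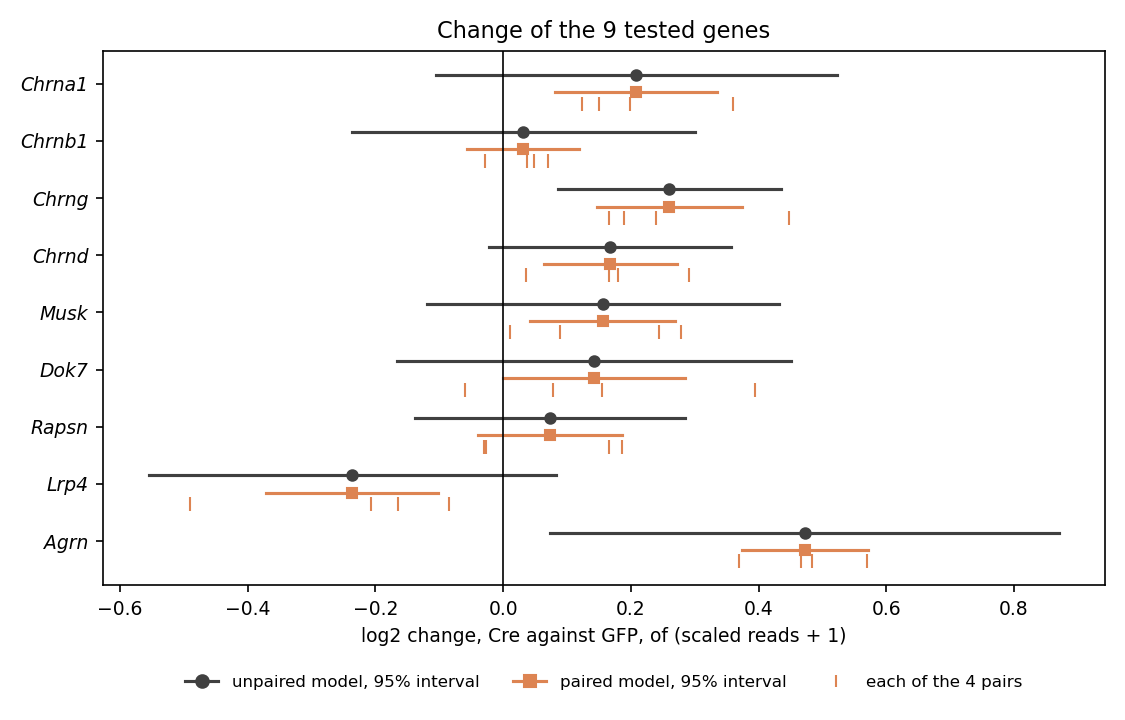
Log2 change, Cre over GFP, of the 9 genes above the filter, with 95% intervals of the unpaired and of the paired limma model and the 4 single pairs as ticks. The unpaired intervals of Chrng and Agrn alone stay on one side of 0 before adjustment, and the paired intervals are narrower for each gene.

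Across the 10 genes, 6 were higher in Cre in 4 of 4 pairs and 1 was lower in 4 of 4, and among the 9 above the filter 5 were higher and 1 lower. Among all genes tested, 27.9% were higher and 27.6% lower in 4 of 4 pairs. Limma-voom weights each value and works on log2 CPM in place of log2(scaled reads + 1). Unpaired, it called 0 of 9, where 1.19% of all genes were called. Paired, it called 6 of 9, where 45.0% of all genes were called.

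Levels can be compared between genes only per length, as scaled reads per kilobase of exon in GENCODE M21. Chrna1 stood far above the rest with 18919 ± 1761 per kilobase in Cre against 16465 ± 2418 in GFP (SD, n = 4 each), 6.20 times Chrnb1 in Cre and 5.53 times in GFP. In GFP the order then ran Chrnb1, Chrnd, Chrng, Rapsn, Musk, Dok7, Lrp4, Agrn and Chrne, with levels per kilobase of 2976, 2167, 1902, 1701, 1140, 894, 680, 393 and 3.11. In Cre the order was the same, with 3049, 2438, 2284, 1792, 1265, 977, 580, 546 and 6.51 per kilobase. Neighbours whose libraries overlapped were Chrng with Rapsn, Musk with Dok7, and Dok7 with Lrp4 in GFP, and Chrnb1 with Chrnd, Chrnd with Chrng, and Lrp4 with Agrn in Cre. Lrp4 and Agrn were thus separate in GFP and overlapped in Cre. Per kilobase, Chrng exceeded Chrne 351-fold in Cre and 612-fold in GFP.

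**Figure D3:**
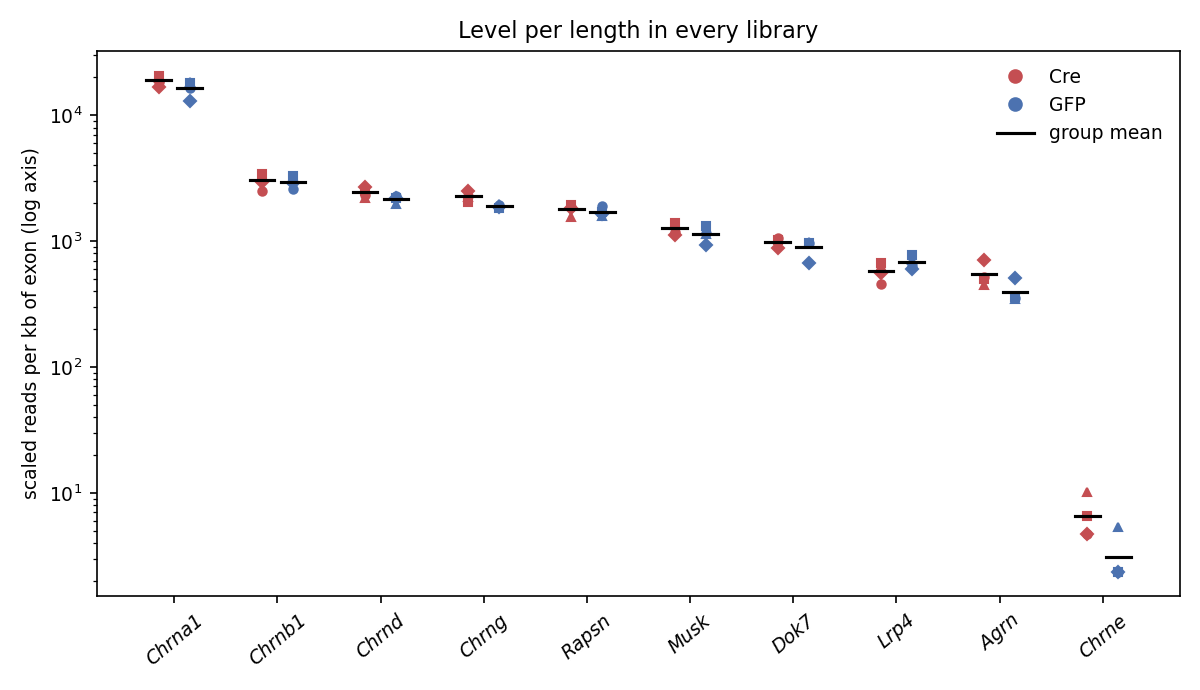
Scaled reads per kilobase of exon of the 10 genes on a log axis, with 1 point per library, Cre left of GFP within each gene. Chrna1 lies highest, the other genes above the filter span 546 to 3049 in Cre and 393 to 2976 in GFP on average, and Chrne is near 7 in Cre and 3 in GFP.

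The 10 genes lie on 5 chromosomes. In the deposited coordinates on GRCm38, Chrnd (ENSMUSG00000026251, chromosome 1, 87190637 to 87200070) and Chrng (ENSMUSG00000026253, chromosome 1, 87205811 to 87212694) are neighbours on the plus strand. Chrna1 (ENSMUSG00000027107, 73563215 to 73580338, minus strand), Rapsn (ENSMUSG00000002104, 91035620 to 91045729, plus strand) and Lrp4 (ENSMUSG00000027253, 91457511 to 91513779, plus strand) are on chromosome 2. Chrnb1 (ENSMUSG00000041189, 69784036 to 69795943) and Chrne (ENSMUSG00000014609, 70614883 to 70619216) are on the minus strand of chromosome 11. Musk (ENSMUSG00000057280, 58285960 to 58374303, plus strand) and Agrn (ENSMUSG00000041936, 156165290 to 156197488, minus strand) are on chromosome 4, and Dok7 (ENSMUSG00000044716, 35056766 to 35087839, plus strand) is on chromosome 5. These intervals are whole genes, and the values count reads over each gene.

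Other genes of the junction did not share one direction. Of 42 further junction genes, 39 passed the filter and 0 were called unpaired by limma or limma-voom. At an unadjusted p under 0.05 in the unpaired limma fit, 0 of 39 were higher and 1 lower. Of all 12910 genes, 956 were higher and 1201 lower. In the paired model 12 of 39 were higher and 9 of 39 lower, against 22.2% and 21.7% of all genes, and their median log2 change was 0.01. Pak1, a kinase downstream of MuSK, had 5286, 5913, 6617 and 7766 scaled reads in Cre and 7266, 8110, 9308 and 11714 in GFP. It was lower in each pair, though the groups overlapped (log2 change -0.50, limma adjusted p = 0.204 unpaired and 1.49e-05 paired). Sntb2, an adaptor of the dystrophin complex, changed by -0.29 (limma adjusted p = 0.371 unpaired and 0.00218 paired). Dvl1, a Wnt pathway scaffold that binds MuSK, changed by -0.23 (limma adjusted p = 0.378 unpaired and 0.00151 paired). The following were chosen after their values had been seen. Ache, the acetylcholinesterase that ends transmission, had 127, 518, 386 and 235 scaled reads in Cre and 54, 252, 192 and 109 in GFP, higher in each pair (log2 change 1.09, limma adjusted p = 0.383 unpaired and 1.73e-05 paired). Scn4a, the muscle sodium channel, changed by 1.00 (adjusted p = 0.388 unpaired and 9.03e-05 paired). Prss12, a protease that cleaves agrin, had 508, 88, 102 and 58 scaled reads in Cre and 266, 30, 33 and 19 in GFP, where replicate 1 stood far above the others in both groups.

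Of 22 transcription factors and corepressors that act on receptor genes, 20 passed the filter and 0 were called unpaired by limma or limma-voom. At an unadjusted p under 0.05 in the unpaired limma fit, 2 of 20 were higher and 1 lower, where 16.7% of all genes passed in either direction. In the paired model 6 of 20 were higher and 4 of 20 lower, against the same shares of all genes, 22.2% and 21.7%. Gabpa, the DNA-binding subunit of GABP, had 3668, 3570, 3445 and 3406 scaled reads in Cre, against 4814, 4230, 4121 and 4598 in GFP. Every Cre library lay below every GFP library (log2 change -0.33, SE 0.070, limma adjusted p = 0.0801 unpaired and 0.000291 paired). Gabpb2, a partner subunit of GABP, changed by -0.29 (limma adjusted p = 0.414 unpaired and 0.00481 paired). Mef2a and Mef2d, muscle transcription factors, changed by 0.34 (limma adjusted p = 0.220 unpaired and 0.000412 paired) and 0.17 (0.253 unpaired and 0.0187 paired), and every Cre library of Mef2d lay above every GFP library. Myod1, chosen after its values had been seen, averaged 41055 ± 7871 scaled reads in Cre against 35525 ± 4258 in GFP (SD, n = 4 each, log2 change 0.20, limma adjusted p = 0.578 unpaired and 0.0425 paired).

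Glycosylation enzymes that cause congenital myasthenia when mutated, and neuronal receptor subunits, were also read. In either list 0 genes were called unpaired by limma, where 1.08% of all genes were. All 5 glycosylation genes passed the filter and 1 was called in the paired model, where 43.9% of all genes were. It was Alg2 (log2 change 0.20, limma adjusted p = 0.426 unpaired and 0.00423 paired). The log2 changes of Dpagt1, Gfpt1 and Alg14 were -0.11, -0.05 and -0.04, with no call. Of 11 neuronal nicotinic subunit genes, 6 were analysed and 2 passed the filter, with no call in either model, too few genes to set against these shares. Chrna7 had 113 ± 76.5 scaled reads in Cre against 114 ± 115 in GFP, and Chrnb2 had 39.0 ± 9.06 in Cre against 38.5 ± 11.7 in GFP (SD, n = 4 each). Muscle subunits thus made up nearly all reads of the nicotinic receptor genes analysed, in both groups.

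The spread of the receptor genes between replicates was set beside that of other genes. The highest over the lowest mean of a replicate number, Cre and GFP averaged, was 1.12 to 1.31 for the 4 subunits above the filter and 1.20 to 1.53 for the 5 clustering genes. The median was 4.16 for 20 muscle differentiation genes, such as contractile protein genes, and 1.36 for all genes tested. Of all genes tested, 42.4% were at or under the highest of the 4 subunits. The receptor transcripts were thus near the typical gene in this measure. No test of this was made.

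**Figure D4:**
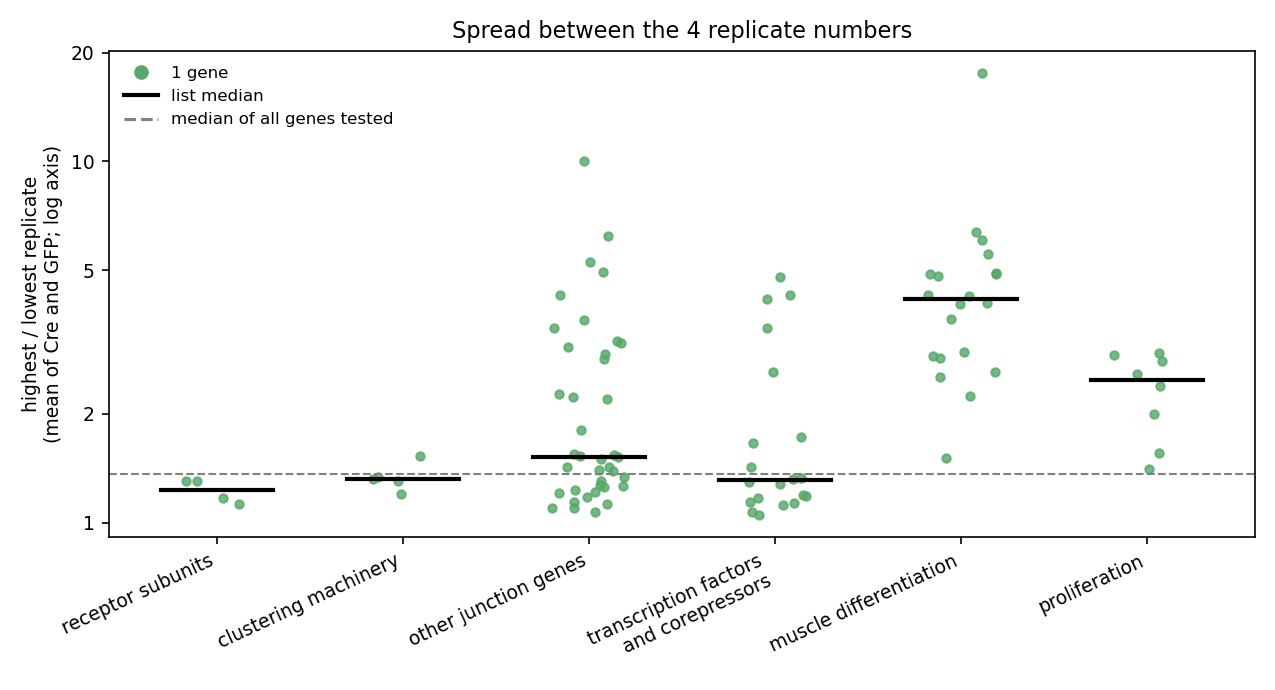
Highest over lowest mean of a replicate number, as a ratio with no unit on a log axis, for the genes of each list. The 4 receptor subunits above the filter lie between 1.12 and 1.31 and clustering genes between 1.20 and 1.53, while muscle differentiation genes lie between 1.51 and 17.6.

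Markers of differentiation and of the cell cycle moved between the same groups. Of 20 muscle differentiation genes, 18 were called higher with pairing, where 22.2% of all genes were, and 0 without it, by limma or limma-voom. At an unadjusted p under 0.05 in the unpaired limma fit 0 of 20 passed, where 16.7% of all genes did. Their median log2 change was 0.33, and Myog had 13513, 32566, 23673 and 22478 scaled reads in Cre and 8884, 26033, 20534 and 13791 in GFP. Summed over the list, scaled reads were 148539, 499162, 482044 and 303202 in Cre and 115663, 431225, 383946 and 199933 in GFP. Of 8 proliferation genes, 8 were called lower with pairing, where 21.7% of all genes were, and 0 without it. At an unadjusted p under 0.05 in the unpaired limma fit 4 of 8 were lower, where 1201 of all 12910 genes were lower. The list had a median log2 change of -0.76, and their sums were 13381, 23166, 28974 and 35850 in Cre and 28293, 37737, 45605 and 59889 in GFP. The 5 receptor subunits summed to 103974, 116261, 112383 and 100295 in Cre and 94475, 102383, 102894 and 79437 in GFP. The receptor and differentiation sums were higher and the proliferation sum lower in Cre in 4 of 4 pairs. The part of differentiation and proliferation in the receptor values was not tested. In bulk RNA, fewer cells of a type and less RNA per cell cannot be told apart.

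**Figure D5:**
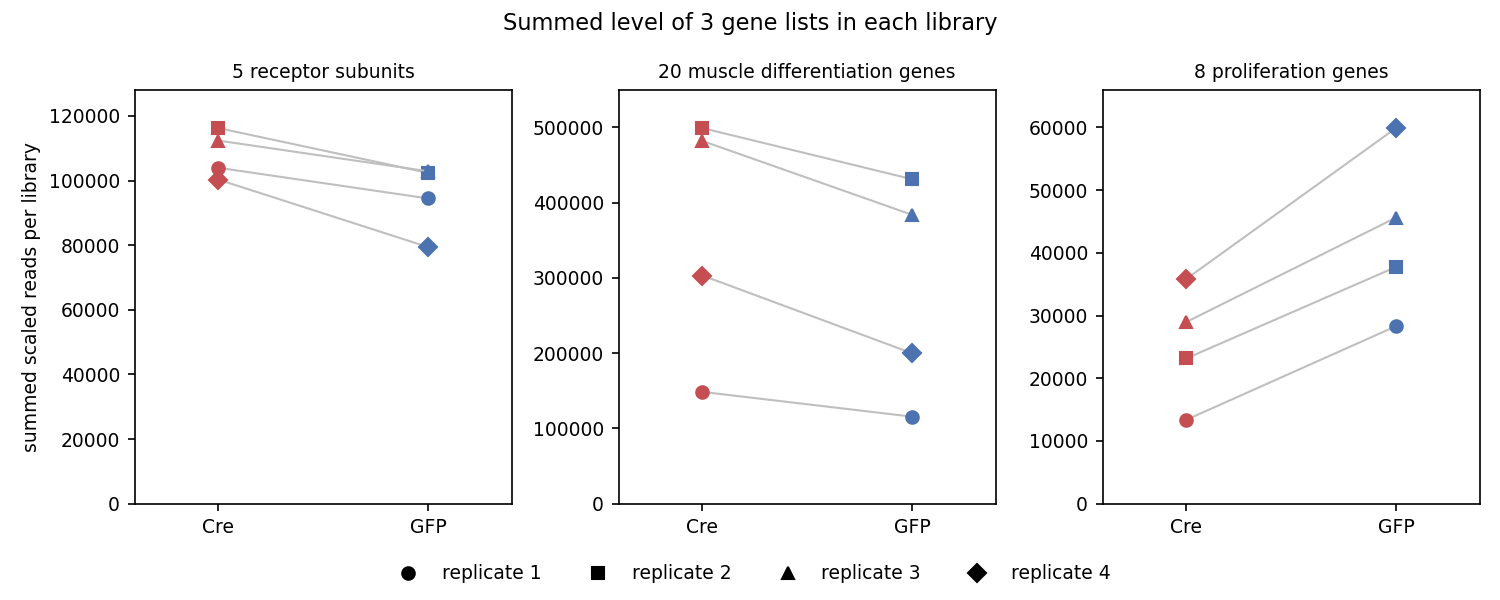
Summed scaled reads per library of the receptor subunits, the muscle differentiation genes and the proliferation genes, Cre left of GFP, with lines joining libraries of the same number and axes starting at 0. The differentiation sum is lowest in replicate 1 of both groups, at 148539 in Cre and 115663 in GFP, and the proliferation sum is lower in Cre in 4 of 4 pairs.

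Markers of cell types that could accompany sorted satellite cells were also read. Deposited values existed for 8 of 8 myogenic, 3 of 5 Schwann cell, 2 of 5 motor neuron and 4 of 4 endothelial markers. They also existed for 2 of 4 immune, 4 of 6 fibroblast and 5 of 5 pericyte and smooth muscle markers, and the sums hold these only. Myogenic markers summed to 101104 to 120861 scaled reads in Cre libraries and 101064 to 108503 in GFP libraries. Schwann cell markers summed to 67 to 77 in Cre and 37 to 110 in GFP. Motor neuron markers summed to 8 to 93 in Cre and 7 to 53 in GFP, with the choline transporter Slc5a7 at 0 in 3 of 4 libraries of each group. Endothelial markers summed to 276 to 408 in Cre and 141 to 182 in GFP, and immune markers to 89 to 396 in Cre and 28 to 243 in GFP. In Cre replicate 1 a single gene supplied the whole motor neuron sum of 93, and a single gene the whole immune sum of 396. Fibroblast markers summed to 10343 to 26667 in Cre and 13195 to 28887 in GFP, mostly from Col3a1, with Dcn at 1 to 22 scaled reads. Within this list Col1a1, a fibrillar collagen gene, was called higher in the unpaired model, with 144, 370, 271 and 213 scaled reads in Cre and 9, 14, 9 and 18 in GFP (log2 change 4.19, limma adjusted p = 0.00412). Pericyte and smooth muscle markers summed to 56057 to 87811 in Cre and 24849 to 45078 in GFP, mostly from Rgs5 and Acta2. Rgs5, a regulator of G-protein signalling, was called higher in the unpaired model, with 36722, 23078, 31853 and 53834 scaled reads in Cre and 7720, 6092, 7010 and 13761 in GFP (log2 change 2.08, limma adjusted p = 0.0277). No other gene of the marker lists was called unpaired. In the paired model 2 of 8 myogenic markers were called higher and 3 lower, against 22.2% and 21.7% of all genes. Of the fibroblast markers above the filter, 1 of 3 was higher and 1 lower. Higher calls went to 1 of 2 endothelial, 1 of 1 immune and 2 of 4 pericyte and smooth muscle markers above the filter. The part of these cells in the results was not tested.

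The genes whose levels followed the receptor subunits most closely were found by correlating log2(scaled reads + 1) of each gene with the mean standardised level of Chrna1, Chrnb1, Chrng and Chrnd over the 8 libraries. That mean was -0.04, 0.78, 0.53 and 0.75 in Cre libraries and -0.61, -0.12, -0.32 and -0.97 in GFP libraries. The highest Pearson correlations were 0.984 for Ogfr, 0.979 for Ext1, 0.966 for Rtn2, 0.961 for Socs1 and 0.949 for Dnajb5. They are the extremes of many genes over 8 libraries that share the 2 groups and the pairs, and are given as a description.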

How the data were processed

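Each group comes from 4 mice per the series' design text. Library preparation kept strand, per the labels. The submitters' processing notes name the builds mm10 and GRCm38 and the tools Subread, featureCounts 1.5.3, STAR 2.5.3a and DESeq; whether counting used strand is not given in the sources used here. The values the authors deposited are treated as a score: counts scaled between libraries and rounded, with totals of 27897860 to 28876348. Multipliers estimated from gaps in the low values were 0.741 to 1.20. Original depth averaged 28.5 ± 1.73 M reads in Cre and 28.1 ± 6.72 M in GFP (SD, n = 4 each). Spread between libraries, in which mouse, culture and infection cannot be told apart, limits well expressed genes, and counting error limits Chrne.

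Since the values are not raw counts, limma 3.58.1 (R 4.3.3) with a mean-variance trend was run on log2(value + 1), for genes at 1 CPM or more in at least 4 libraries, with Benjamini-Hochberg adjustment and calls under 0.05. The labels do not say that numbers pair libraries. After subtraction of group means, libraries of the same number correlated at 0.820 to 0.908 (n = 4) and others at -0.597 to 0.477 (n = 12), so the numbers were taken as pairs on the data alone. Chrne was tested by an exact permutation test, an alternative chosen after seeing the data. Alternatives were limma-voom, scaling by a trimmed mean of M values (TMM), equal totals, other filters and pseudocounts, pairing, and leaving out each library. Members and lists were chosen with earlier results of these data known. Genes named are the 10 members, Chd4, up to 4 genes per list with the smallest unpaired p besides any called, and the 5 most correlated genes; others are said to be chosen after their values were seen. A gene that the rule names is not reported here. Exon lengths are from GENCODE M21, which held 20941 of 20976 identifiers. Deposited coordinates matched it for 8 of 10 members, all but Chrng and Chrnd.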

Additional observations from a re-analysis of the deposited data

Results flagged for a closer look

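A library far from the other 3 of its group was looked for in 24 groups, the Cre and GFP libraries of each gene and ratio examined. In 4 of them the gap to the nearest library, as a share of the range of the group, passed Dixon's 95% critical value, and chance gives such a gap in about 1 of 20 groups. The groups are not independent, since Chrne enters the ratio of Chrng to Chrne, and its few reads are tied whole numbers. The count of 4 therefore cannot be compared with that rate. All 4 were in GFP. GFP replicate 3 was the highest for Chrne, with a gap of 1.00 of the range, since the other 3 libraries were at 4 scaled reads, and the lowest for the ratio of Chrng to Chrne (0.913). GFP replicate 4 was the lowest for Dok7 (0.923) and the highest for Agrn (0.931). Without GFP replicate 4, the log2 change of Dok7 was 0.01 and that of Agrn was 0.60, with limma adjusted p of 0.983 and 0.182.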

How the results depend on the processing

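The call of Chd4 and the absence of a call for Rapsn were the same in the 26 alternatives. In the models without the pair term, 0 of the 9 genes tested was called under any alternative, and directions held for all 9 except Chrnb1, whose log2 change was -0.02 without Cre replicate 2, -0.01 without Cre replicate 3 and -0.035 without GFP replicate 1 (0.12 at most, without Cre replicate 1). Calls therefore depend on pairing, which the labels do not state. Over all genes, the replicate block gave 2861 higher and 2804 lower, against 108 and 32 without it. Blocked counts were 2606 and 3201 with limma-voom, 3123 and 2538 with no filter, 2881 and 2812 with a pseudocount of 5, 2607 and 3157 with equal totals, and 2738 and 2904 with TMM. A filter at 5 CPM without the block gave 58 higher. Leaving out 1 library gave 10 to 51 higher and 1 to 7 lower, and leaving out 1 pair gave 2648, 2304, 2482 and 2238 higher and 2365, 2289, 2379 and 2100 lower for pairs 1 to 4. In these 6 blocked fits, in the order given with the plain block first, 6, 6, 5, 6, 5 and 6 of the 10 genes were called, 21, 24, 22, 22, 23 and 23 other junction genes, 10, 10, 9, 10, 9 and 10 transcription factors, and 18, 16, 17, 18, 18 and 18 differentiation genes. Leaving out 1 library gave 0 calls in each of these lists. Leaving out 1 pair gave 3 to 6 calls for the 10 genes, 17 to 22 (20 without pair 3), 8 to 9 and 14 to 18 for those lists, 8 for proliferation genes and 1 for glycosylation genes. The 6 blocked fits called 8 proliferation genes and 1 glycosylation gene each, and 1 neuronal subunit, Chrna5, with no filter only. Dok7 was called in 1 paired setting, without pair 3 (adjusted p = 0.0367). The ratio of Chrng to Chrne kept its direction and its lack of a call in 11 of 11 alternatives (-0.92 to -0.38). For Chrne, near 10 reads, the depth limits what can be seen.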

Other observations

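A pair of genes below the filter, chosen after their values had been seen, stood higher in Cre. Ric3, a chaperone of nicotinic receptor assembly, had 15, 8, 22 and 11 scaled reads in Cre libraries and 4, 5, 0 and 3 in GFP libraries, without overlap. Chrna5, a neuronal accessory subunit, had 5, 1, 21 and 9 in Cre and 0, 1, 2 and 1 in GFP. Fitted without the filter, limma adjusted p was 0.173 unpaired and 0.0239 paired for Ric3, and 0.280 unpaired and 0.0230 paired for Chrna5. At so few reads, counting error is large.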
